A study of Rattus norvegicus with 22 samples.

Results

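Cytosolic ribosomal proteins form, together with the ribosomal RNAs, the small and the large subunit of the ribosome. The genes described here were chosen by symbol and by count: the symbol had to be that of a numbered protein of the small subunit (Rps), of the large subunit (Rpl) or of the ribosomal stalk (Rplp), and the gene had to have at least 100 counts in every library. Of 32883 genes in the count table, 89 had such a symbol and 65 of those also had the counts, 27 for the small and 38 for the large subunit with its stalk. These 65 genes carry 62 symbols, because Rps27a stands for 2 genes and Rpl21 for 3. The minimum was applied to counts in all groups alike, so the level of the members is a description. The rule itself uses no difference between groups, but the set was chosen with earlier results of these data known.

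RNA came from the ventral cervical spinal cord of 22 adult rats, with 1 library per rat. All were Sprague-Dawley rats of 3 to 4 months, perfused with saline before segments C3 to C6 were taken and their dorsal part was discarded. The groups were 5 intact males, 5 gonadectomized (GDX) males without testes, 6 intact females and 6 ovariectomized (OVX) females without ovaries. Tissue of GDX and OVX rats was taken 2 weeks after surgery, and the controls were intact rats of like age, since the methods name no sham surgery. Rats are called by their numbers, which are 1, 2, 3, 5 and 6 for intact males and 1, 2, 4, 5 and 6 for GDX males. Between 12371756 and 17571887 reads were counted per library. The study's library table gives the average input fragment size of each library. The sizes were split here into a shorter and a longer class, and every library from a gonadectomized rat belongs to the shorter class. Of the intact rats, males 2 and 5 and females 1 and 4 have shorter and the remaining 7 longer fragments. Levels are given as CPM, counts relative to library sizes that were scaled by edgeR's TMM factors.

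Markers of the ventral spinal cord were present in every library. Chat (ENSRNOG00000025012), which makes acetylcholine in motor neurons, had 25.3 to 60.5 CPM. Mbp (ENSRNOG00000016516), a myelin protein of oligodendrocytes, had 10708 to 14275 CPM. The dorsal horn factor Tlx3 (ENSRNOG00000004976) had at most 0.437 CPM, and Lmx1b (ENSRNOG00000017019), a further one, had at most 1.76 CPM.

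A cell makes ribosomal proteins in near equal amounts and degrades those that find no place in a ribosome. Their transcripts typically begin with a C followed by a run of C and T (a terminal oligopyrimidine tract), through which the growth-regulating kinase mTOR and the binding protein Larp1 set how much of the transcript is translated. In spinal cord, motor neuron cell bodies hold dense stacks of ribosomes, the Nissl substance.

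The start regions of members that differed between groups are shown first, because many members have this tract and their selection did not use it. Of the 62 symbols, 50 matched a promoter entry of RefSeq (build GRCr8), with 51 entries since Rps27a had 2. The other 12 symbols had no entry. Each window of 30 bases runs from 10 bases before the annotated start of transcription, and capitals mark the longest run of at least 6 C or T that overlaps the 10 bases on either side of the start. The windows lie at chr16:96507-96536 (Rps24, plus strand), chr6:50999426-50999455 (Rps7, minus strand), chr9:49143101-49143130 (Rpl31, plus strand), chr5:153560783-153560812 (Rpl11, minus strand), chr1:92770648-92770677 (Rps16, plus strand), chr7:15311314-15311343 (Rps28, minus strand) and chr2:23814507-23814536 (Rps23, plus strand).
Rps24: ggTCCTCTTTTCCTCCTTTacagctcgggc
Rps7: agagctgtgTCTCTTTCTaagccggcactc
Rpl31: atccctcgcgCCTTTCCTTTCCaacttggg
Rpl11: cttgaagcttgtttggtgctggggagcatc
Rps16: aaaatcggtcggggtggccccaagctttcc
Rps28: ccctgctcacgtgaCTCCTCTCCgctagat
Rps23: ccttcctgCCTCTCTTCTCTCTTTCTCTCg

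The tract covers the annotated start in Rps24, Rps7, Rpl31 and Rps23, and in Rps28 it begins at position 5, counted from 1 at the start. The windows of Rpl11 and Rps16 hold no such run near the start. Over all members, 36 of 51 entries (70.6%) had a run, against 23.1% of 33469 entries of all genes. In 30 of the 51 entries (58.8%) such a run covered the start base itself, against 8.26% of all entries. The start base was C in 49% of member entries and in 24.1% of all entries. The median longest run was 9 bases in members and 4 in all entries.

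Motifs were searched on both strands of the whole entry of 300 bases. CTTTCC, which can lie inside the tract and so overlaps the count of runs, was in 27 of 51 member entries (52.9%) and in 26.4% of all. CCGGAAG was in 16 member entries (31.4%) and in 8.75% of all. AAGATGG was in 6 (11.8%) and in 7.01% of all, and TATAAA in 4 (7.84%) and in 14.2% of all. A match describes the letters of a window and says nothing of binding.

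Together the 65 genes took between 0.507% and 0.598% of the counted reads of a library. The shares of intact males 1, 2, 3, 5 and 6 were 0.520%, 0.515%, 0.564%, 0.526% and 0.507%. In GDX males 1, 2, 4, 5 and 6 they were 0.544%, 0.569%, 0.550%, 0.583% and 0.556%. Of the intact males, rat 3 alone reached into the range of the GDX males, and the other 4 lay below all other rats of the study. The lowest, median and highest shares were 0.559%, 0.563% and 0.598% in intact females and 0.534%, 0.581% and 0.588% in OVX females. These female ranges overlapped widely. The 95% Wilson intervals of the shares were 0.00688 to 0.00841 percentage points wide and cover counting error only, since reads without molecular identifiers are not independent molecules.

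The mean share was 0.527% ± 0.0221 (SD, n = 5) in intact males and 0.560% ± 0.0156 (SD, n = 5) in GDX males. Intact females had a mean of 0.573% ± 0.0181 (SD, n = 6), and OVX females had 0.569% ± 0.0239 (SD, n = 6). Relative to its control, the mean share was 6.41% higher in GDX males and -0.632% different in OVX females, and in intact males it was -8.07% different from intact females. A share over members chosen with earlier results known was given no test. Within the shorter fragment class, 2 intact males had a mean of 0.521%, 2 intact females 0.596%, and the differences were 7.61% in GDX males, -4.47% in OVX females and -12.6% between intact males and intact females. In summed CPM, intact males were again lowest and intact females highest, with means of 5209 in intact males, 5656 in OVX females, 5699 in GDX males and 5750 in intact females. Member by member, the group with the lowest mean level was the intact males for 59 of 65 genes, and in no gene was it the group with the highest.

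**Figure D1:**
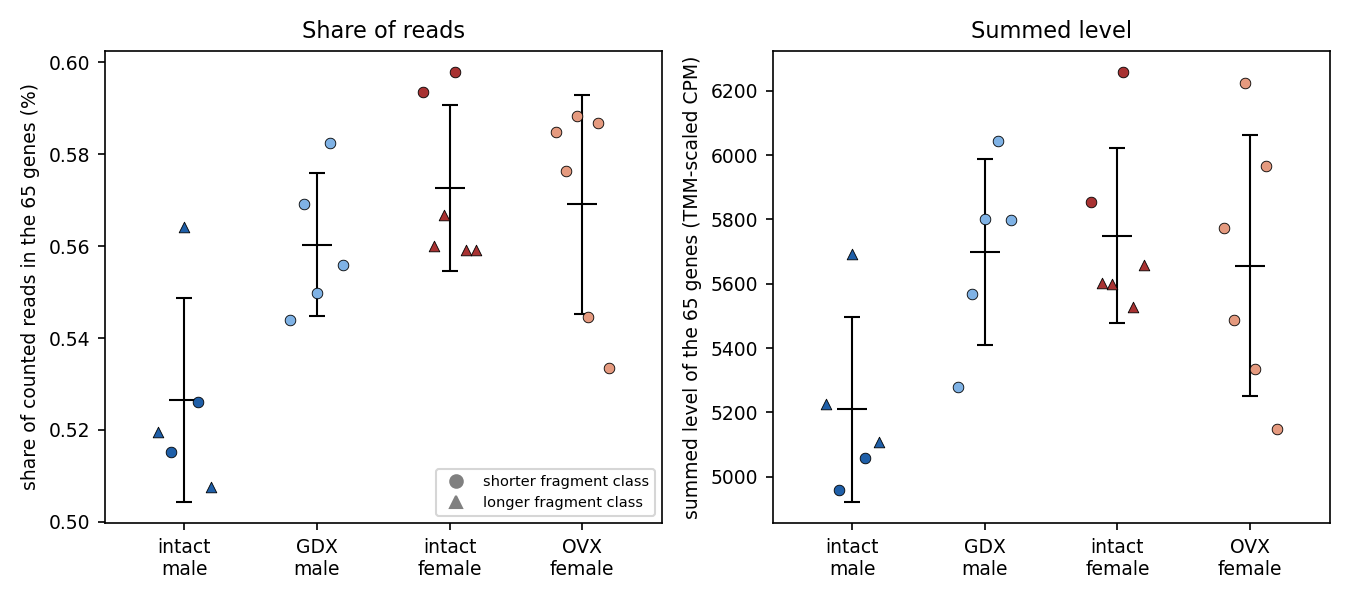
Share of counted reads (left, in percent) and summed level (right, TMM-scaled CPM) of the 65 ribosomal protein genes, with 1 point per rat, circles for the shorter and triangles for the longer fragment class, and bars for the mean and SD of each group. Intact males lie between 0.507% and 0.564%, and their rat 3 is the only one within the range of the GDX males. The axes do not start at 0.

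The first comparison asks what differed in males 2 weeks after removal of the testes. Ribosomal protein genes of both subunits were slightly higher in GDX than in intact males. By edgeR, 17 of 65 members were called higher at an adjusted p under 0.1, where 6.78% of the 14931 genes tested were called higher. The members' share of 26.2% was thus above that background. No member (0) was called lower by edgeR, where 6.58% of all genes were, and DESeq2 called 21 higher and 0 lower, where it called 6.87% of all genes higher and 6.9% lower. The median log2 fold change of the members was 0.14 (quartiles 0.09 and 0.18), a rise of 10.3%, against 0.00 over all genes tested, and 63 of 65 members had a positive value. At an unadjusted p under 0.05 there were 37 members (56.9%), against 23.8% of all genes. Whether fewer cells of a type or less RNA per cell lies behind a lower level cannot be told apart in bulk tissue.

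Among the small subunit genes, 6 of 27 were called, with a median of 0.15. Rps24 (ENSRNOG00000010189), needed for processing of the small subunit's RNA, had 94.0, 85.8, 94.3, 89.9 and 86.4 CPM in intact males 1, 2, 3, 5 and 6 and 98.1, 101, 122, 109 and 110 CPM in GDX males 1, 2, 4, 5 and 6. All 5 GDX males were above all 5 intact males, with rat 4 the highest. Its log2 fold change was 0.27 (SE 0.06, edgeR adjusted p = 0.0131). Rps7 (ENSRNOG00000008551), a further protein of the same processing steps, had 84.9, 87.5, 91.5, 81.8 and 86.1 CPM in intact males and 94.9, 92.9, 102, 105 and 97.3 CPM in GDX males. Here too the groups did not overlap, and the log2 fold change was 0.19 (SE 0.05, edgeR adjusted p = 0.0221).

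Large subunit genes gave 11 calls among 38, with a median of 0.13. Rpl31 (ENSRNOG00000013508), which sits near the exit of the tunnel for the new protein, had 45.4, 39.5, 45.8, 39.1 and 42.1 CPM in intact males and 42.2, 53.1, 56.5, 53.8 and 52.1 CPM in GDX males. GDX male 1 lay inside the intact range and the other 4 above it. The log2 fold change was 0.28 (SE 0.08, edgeR adjusted p = 0.0307). Rpl7 (ENSRNOG00000006992), which has a close relative described further on, had 97.0, 99.7, 109, 101 and 92.6 CPM in intact males and 103, 110, 131, 128 and 120 CPM in GDX males. Only GDX male 1 was below the highest intact male, rat 3, and the log2 fold change was 0.25 (SE 0.07, edgeR adjusted p = 0.0311). For Rpl11 (ENSRNOG00000026260), which binds the smallest RNA of the large subunit and the p53 regulator Mdm2, intact males had 56.4, 51.4, 61.2, 53.9 and 57.1 CPM and GDX males 59.6, 63.2, 65.2, 67.9 and 66.5 CPM. Again intact male 3 exceeded GDX male 1 and no other pair of rats crossed. Its log2 fold change was 0.20 (SE 0.05, edgeR adjusted p = 0.0315). The remaining 12 called members had log2 fold changes from 0.11 (Rpl4, ENSRNOG00000009378) to 0.24 (Rps21, ENSRNOG00000060449).

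The groups did not overlap, with GDX males above, for 4 of 65 members, where 3.54% of all genes tested did so. Besides Rps24 and Rps7 these were Rpl27a (ENSRNOG00000014214) and Rpl4 (all 4 chosen after their values were seen). Rpl27a had 61.9 to 67.6 CPM in intact and 69.0 to 77.8 CPM in GDX males, and Rpl4 had 176 to 187 CPM and 188 to 206 CPM. With 4 members the count is small.

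The number of members called moved with single rats, while the median stayed between 0.12 and 0.17. Without GDX male 1 it was 27 and without intact male 3 it was 30. It fell to 6 without GDX male 5, to 8 without GDX male 6 or intact male 1, 2 or 6, and to 9 without GDX male 4 or intact male 5. In the shorter fragment class alone, with 2 intact males, all 65 members were positive with a median of 0.19 and 4 were called, and with the class as a term 11 were called. With RNA integrity as a term 7 were called. The share of all genes called in these fits is not given here, so these counts cannot be set against it.

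**Figure D2:**
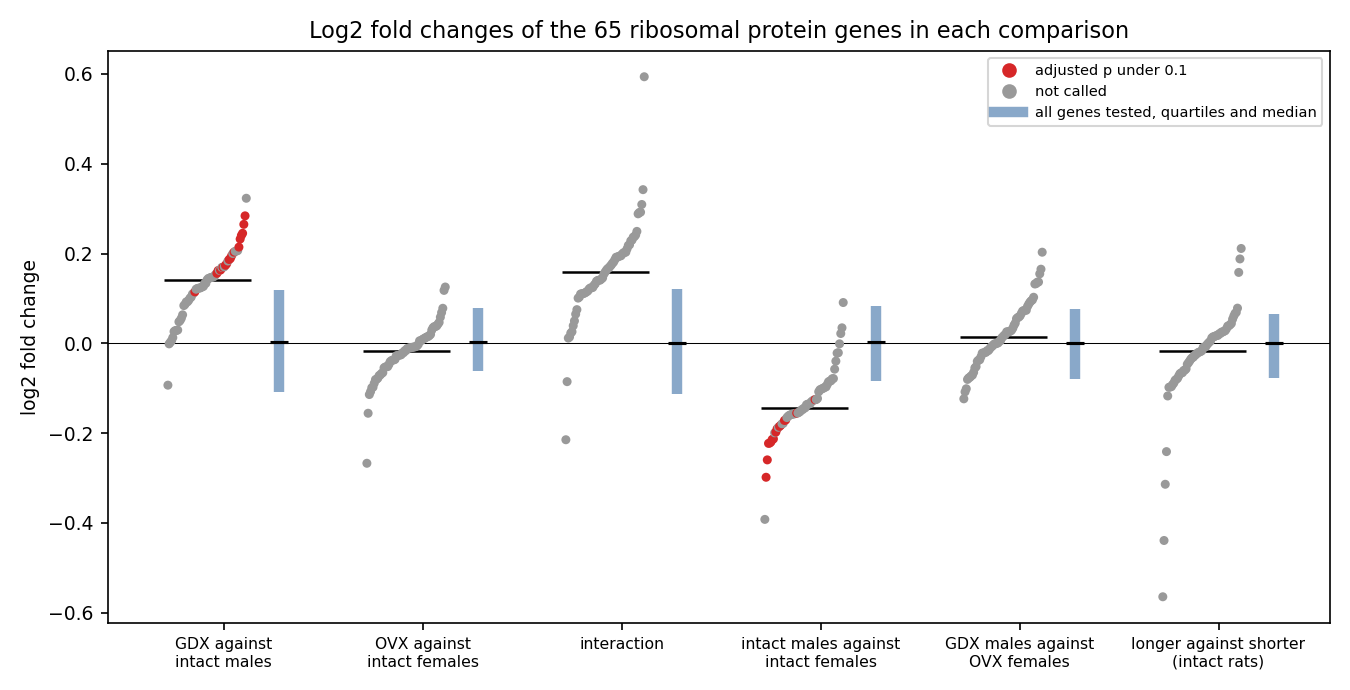
Log2 fold changes of the 65 members in each of the 6 comparisons, in red where called at an edgeR adjusted p under 0.1, with a line at their median and a blue bar for the quartiles of all genes tested. Most members lie above 0 in GDX against intact males (63 of 65, median 0.14) and below 0 in intact males against intact females (62 of 65, median -0.14), and they lie around 0 in OVX against intact females (median -0.02).

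Markers of meninges and fibroblasts moved with the members in males. Of the 7 genes listed, 6 were in the table, and all 6 were called higher in GDX males by edgeR, with a median log2 fold change of 1.59. Examples are Slc6a13 (ENSRNOG00000012876), a transporter of the meninges, with a log2 fold change of 1.57 (SE 0.26, edgeR adjusted p = 0.00554), and Igf2 (ENSRNOG00000020369), a growth factor made by meningeal cells, with 1.60 (SE 0.29, edgeR adjusted p = 0.00678). The summed level of the list was 144, 91.5, 95.3, 64.2 and 47.0 CPM in intact males 1, 2, 3, 5 and 6 and 122, 211, 303, 385 and 322 CPM in GDX males 1, 2, 4, 5 and 6. It was 107, 93.9, 215, 302, 228 and 287 CPM in intact females 1 to 6 and 325, 252, 325, 258, 197 and 260 CPM in OVX females 1 to 6. Of the intact males only rat 1 exceeded a GDX male, rat 1, while intact females 1 and 2 lay within the range of intact males. The most abundant of the 6 was Col1a1 (ENSRNOG00000003897), a collagen, with a mean of 85.7 CPM, and none was at 0 in any library. With the mean log2 level of this list as a term in the fit, an alternative chosen after seeing the data, edgeR called 0 members and the median was 0.00, with 34 members above and 31 below 0. In that fit edgeR called 2 of 15409 genes in all. The mean log2 level used as the term was 2.57 to 3.75 in intact males and 3.95 to 5.39 in GDX males. Since these ranges do not overlap, that fit cannot tell the marker level apart from the group. The part of these cells in the result was not tested.

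**Figure D3:**
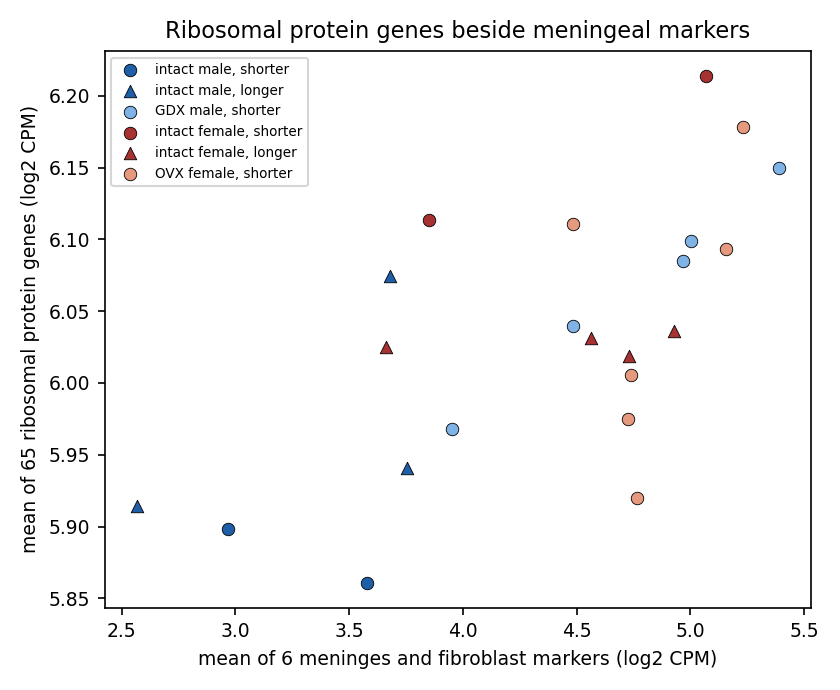
Mean log2 CPM of the 65 ribosomal protein genes (vertical) against that of 6 meninges and fibroblast markers (horizontal), with 1 point per rat, circles for the shorter and triangles for the longer fragment class. Intact males lie at 2.57 to 3.75 on the horizontal axis and GDX males at 3.95 to 5.39. The axes do not start at 0.

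Other cell type markers gave these values in the same comparison. All 4 endothelial markers in the table were called higher in GDX males by edgeR (median 0.59), with Cdh5 (ENSRNOG00000013324), a junction protein of vessels, at a log2 fold change of 1.23 (SE 0.15, edgeR adjusted p = 0.00136). Of 5 astrocyte markers 2 were called higher, Gfap (ENSRNOG00000002919), an intermediate filament, at 0.38 (SE 0.06, edgeR adjusted p = 0.00472) and the water channel Aqp4 (ENSRNOG00000016043) at 0.18 (SE 0.04, edgeR adjusted p = 0.0209). Of 6 motor neuron markers 1 was called lower, the acetylcholine transporter Slc18a3 (ENSRNOG00000062141) at -0.43 (SE 0.13, edgeR adjusted p = 0.0542). Of 5 oligodendrocyte markers 1 was called higher, Mbp at 0.17 (SE 0.05, edgeR adjusted p = 0.067). By edgeR 0 of 5 microglia markers, 0 of 2 ependyma markers and 0 of 2 dorsal horn markers were called, with medians of 0.14, 0.10 and 0.12. Hbb (ENSRNOG00000058105), a globin of blood, was called higher at 1.45 (SE 0.44, edgeR adjusted p = 0.0544). Their part in the result was not tested.

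Intact males were next compared with intact females, the sex difference with gonads present. Ribosomal protein genes were lower in intact males. By edgeR, 15 of 65 members were called lower, where 2.56% of 14937 genes tested were called lower. The members' share of 23.1% lay above that background. None (0) was called higher by edgeR, where 1.45% of all genes were, and DESeq2 called 23 lower and 0 higher, where it called 3.31% of all genes lower and 1.85% higher. Their median log2 fold change was -0.14 against 0.00 over all genes, 62 of 65 were negative, and 42 (64.6%) had an unadjusted p under 0.05, against 15.5% of all genes. This comparison, the GDX comparison in males and the interaction described later share the same 5 intact males, so they are not independent of each other.

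Of the small subunit genes 7 of 27 were called, and those described here are among the members with the smallest adjusted p. Rps16 (ENSRNOG00000019578), whose tail reaches to the decoding site, had 75.2, 78.0, 85.5, 76.4 and 77.8 CPM in intact males 1, 2, 3, 5 and 6, and in intact females the lowest, median and highest values were 87.4, 92.0 and 95.5 CPM. No intact male reached the lowest intact female. The log2 fold change was -0.22 (SE 0.04, edgeR adjusted p = 0.0104). Rps28 (ENSRNOG00000042886), a small protein at the exit of the messenger RNA channel, had 13.4, 13.1, 13.8, 14 and 15.4 CPM in intact males and 15.9, 17.5 and 18 CPM as the lowest, median and highest in intact females. The groups did not overlap, and the log2 fold change was -0.30 (SE 0.06, edgeR adjusted p = 0.0244). For Rps24, whose intact male values are given above, intact females had 97.0, 101 and 112 CPM as the lowest, median and highest. All females were again above all intact males, at a log2 fold change of -0.19 (SE 0.04, edgeR adjusted p = 0.0326).

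Rps23 (ENSRNOG00000016580), a protein of the decoding centre that bears on accuracy, had 194, 172, 213, 195 and 205 CPM in intact males and 215, 226 and 246 CPM as the lowest, median and highest in intact females. There was no overlap, and the log2 fold change was -0.21 (SE 0.05, edgeR adjusted p = 0.0391). Of the large subunit genes 8 of 38 were called lower, with a median of -0.15 over the 38.

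In 11 of 65 members all intact males lay below all intact females, where 1.49% of all genes tested did so. Without intact male 3 the number called rose to 33. It was 3 without intact male 1, 4 without intact male 5, 6 without intact male 2, 7 without intact female 4 and 8 without intact male 6. Libraries of the shorter class alone, 2 of each sex, gave 2 calls and a median of -0.27 with all 65 negative. A fit with rat number as a block gave 1 call. Here too the share of all genes called in these fits is not given.

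Meninges and fibroblast markers were lower in intact males too, with 4 of 6 called by edgeR and a median log2 fold change of -1.23. Slc6a13 was at -1.34 (SE 0.21, edgeR adjusted p = 0.00454) and Dcn (ENSRNOG00000004554), a matrix proteoglycan, at -1.16 (SE 0.24, edgeR adjusted p = 0.0211). With the meninges and fibroblast level as a term, edgeR called 0 members and the median was -0.09, with 53 of 65 negative, and 24 of 15401 genes were called in all. The mean log2 level used as the term differed between the groups, with means of 3.31 in intact males and 4.47 in intact females. That fit therefore cannot fully tell the marker level apart from sex. The part of these cells was not tested.

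**Figure D4:**
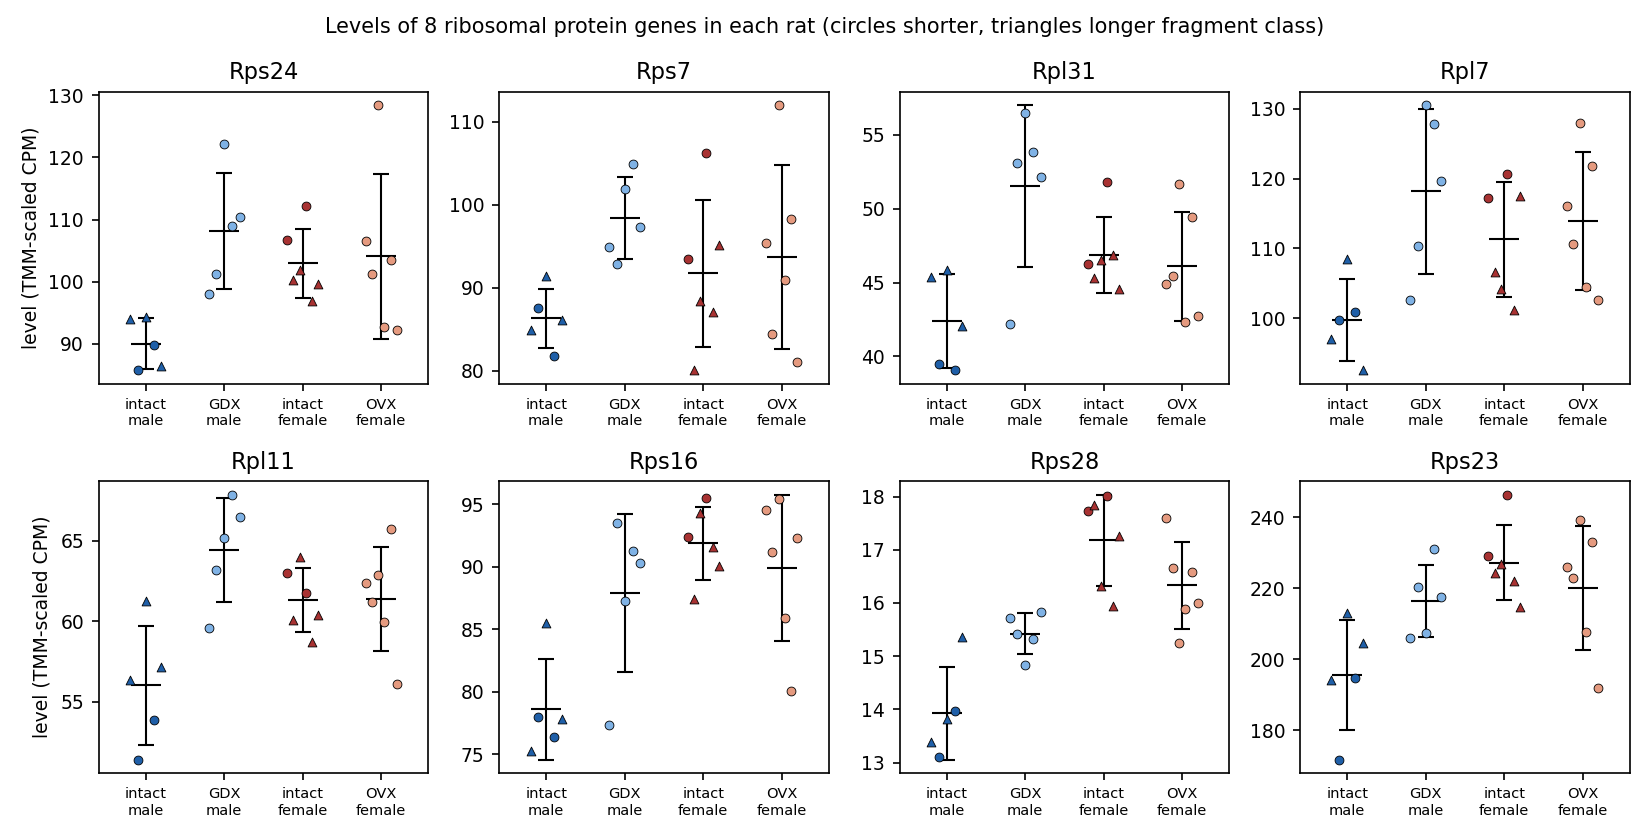
Levels (TMM-scaled CPM) of 8 members in each rat, with circles for the shorter and triangles for the longer fragment class and bars for the mean and SD of each group. The first 5 panels show the members with the smallest adjusted p in GDX against intact males, and the other 3 show members called in the sex difference of intact rats, in which Rps24 was called as well. Rps24 lies between 85.8 and 94.3 CPM in intact males and at 98.1 CPM or more in GDX males. The axes do not start at 0.

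OVX against intact females asks what differed in females after removal of the ovaries. No member passed the test. By edgeR 0 of 65 were called, where 0.0335% of 14910 genes tested were called. At an unadjusted p under 0.05 there were 3 members, a share below the 10.2% of all genes, and DESeq2 called 0 members where it called 1.2% of all genes. The median log2 fold change was -0.02, with 22 members positive and 43 negative, and in the shorter class alone it was -0.10 with 5 positive and 60 negative. The median SE of a member was 0.06 beside a median difference of 0.14 in males.

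The smallest unadjusted p was that of Rps10 (ENSRNOG00000000490), which lies at the entry of the messenger RNA channel and is ubiquitinated on stalled ribosomes. Its lowest, median and highest levels were 34.3, 35.9 and 39.3 CPM in intact females and 30.0, 32.7 and 35.3 CPM in OVX females. The ranges overlapped only between 34.3 and 35.3 CPM, and the log2 fold change was -0.16 (SE 0.05, edgeR adjusted p = 0.307). Next came Rpl6 (ENSRNOG00000025936), a protein on the surface of the large subunit, with 151, 158 and 168 CPM in intact and 136, 147 and 154 CPM in OVX females. Overlap was again partial, at a log2 fold change of -0.11 (SE 0.04, edgeR adjusted p = 0.334).

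Meninges and fibroblast markers gave a median of 0.32 in females, with 0 of 6 called by edgeR and the smallest adjusted p at 0.571 (Col1a1, log2 fold change 0.52, SE 0.29). Of the endothelial markers 1 of 4 was called higher, the vascular receptor Kdr (ENSRNOG00000046829) at 0.77 (SE 0.13, edgeR adjusted p = 0.0966).

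Whether the response to gonadectomy differed between the sexes was tested by the interaction over all 22 rats. EdgeR called 0 of 65 members at an adjusted p under 0.1, where 0.116% of 15562 genes tested were called. So the difference between a call in males and none in females is not itself shown by edgeR for any member. At an unadjusted p under 0.05 there were 22 members (33.8%), against 11.6% of all genes, and DESeq2 called 2 members where it called 1.63% of all genes. The median was 0.16, with 63 of 65 positive, and in the shorter class it was 0.29. Leaving out GDX male 1 gave 4 calls and leaving out intact male 3 gave 2.

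Rpl10 (ENSRNOG00000056765), a late-joining protein next to the centre of peptide bond formation that is encoded on the X chromosome, had the smallest p. It had 65.3, 61.0, 73.4, 61.0 and 64.3 CPM in intact males and 70.8, 69.9, 70.2, 81.2 and 74.3 CPM in GDX males. In females its lowest, median and highest were 70.3, 71.7 and 79.4 CPM with ovaries and 60.9, 66.7 and 73.6 CPM without. All GDX males exceeded 4 of the 5 intact males, and 4 of 6 OVX females lay below all intact females. The interaction was 0.29 (SE 0.08, edgeR adjusted p = 0.155, DESeq2 adjusted p = 0.0526). In males alone it was called, at a log2 fold change of 0.17 (SE 0.06, edgeR adjusted p = 0.0867), but only 3 of 10 fits without a rat called it, with an adjusted p of up to 0.211. The other call by DESeq2 was Rps3a (ENSRNOG00000011893), a protein of the small subunit's outer side, at an adjusted p of 0.0991.

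Rps21, a small protein of the small subunit, came next. Its levels were 21.7, 19.2, 24.6, 19.3 and 18.2 CPM in intact males and 23.9, 24.5, 24.6, 25.9 and 22.7 CPM in GDX males, and in females the lowest, median and highest were 21.9, 25 and 26.3 CPM with ovaries and 19.8, 23.1 and 26.2 CPM without. Only intact male 3 reached the GDX range, and the female ranges overlapped. The interaction was 0.34 (SE 0.10, edgeR adjusted p = 0.172).

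GDX males were also compared with OVX females, the sex difference without gonads, in which all libraries are of the shorter class. EdgeR called 0 of 65 members, where 0.232% of 15084 genes tested were called. Members at an unadjusted p under 0.05 numbered 2, against 9.37% of all genes, and DESeq2 called 0 where it called 0.838% of all genes. The median was 0.01, with 38 positive and 27 negative. Rpl10, whose values stand above, had a log2 fold change of 0.13 (SE 0.06, edgeR adjusted p = 0.48). Rpl31 was at 0.17 (SE 0.07, edgeR adjusted p = 0.489), with 42.4, 45.2 and 51.6 CPM as the lowest, median and highest in OVX females. The ranges of GDX and OVX rats overlapped for both genes.

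The fragment class was compared within intact rats, longer against shorter, with sex as a term. EdgeR called 0 of 65 members, where 0.00649% of 15401 genes tested were called. At an unadjusted p under 0.05 there were 4, against 7.69% of all genes, and DESeq2 called 0 where it called 0.373%. The median was -0.02. Without a filter on low counts 2 members were called lower.

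Rps18 (ENSRNOG00000028505), in the head of the small subunit, had 45.5, 48.7 and 35.6 CPM in longer and 40.5 and 48.9 CPM in shorter libraries of intact males. In intact females these were 41.1, 39.6, 40.0 and 35.5 CPM in longer and 46.2 and 57.2 CPM in shorter libraries. The classes overlapped in males and not in females, and the log2 difference was -0.24 (SE 0.09, edgeR adjusted p = 0.563). Rps9 (ENSRNOG00000058909), near the entry of the messenger RNA channel, had 22.2, 28.1 and 17.6 CPM in longer and 18.7 and 24.4 CPM in shorter libraries of intact males, and 15.8 to 20.5 CPM in longer and 22.1 and 40.2 CPM in shorter libraries of intact females. Again only the females' classes did not overlap. Its log2 difference was -0.44 (SE 0.19, edgeR adjusted p = 0.608). Without intact female 4, whose 40.2 CPM was the highest Rps9 level of all rats, it was -0.12, and for Rps18 it was -0.13.

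Stalk proteins, which recruit elongation factors to the ribosome, did not pass the test in any comparison by edgeR. Rplp0 (ENSRNOG00000001148), the base of the stalk, had 169, 163, 186, 160 and 160 CPM in intact males and 157, 169, 162, 192 and 173 CPM in GDX males. The groups overlapped throughout, and the log2 fold change was 0.03 (SE 0.06, edgeR adjusted p = 0.816). Rplp1 (ENSRNOG00000013874), an arm of the stalk, had 141 to 182 CPM in intact males, 153 to 181 CPM in GDX males, 170 to 188 CPM in intact females and 162 to 206 CPM in OVX females. In males it was at 0.05 (SE 0.07, edgeR adjusted p = 0.706). Between intact males and intact females Rplp1 was at -0.17 (SE 0.06, edgeR adjusted p = 0.162, DESeq2 adjusted p = 0.0851), so DESeq2 called it lower there. Its partner Rplp2 (ENSRNOG00000037607) had 17 to 61 counts per library and is not a member.

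Rpl5 (ENSRNOG00000023529) joins Rpl11 on the smallest RNA of the large subunit. It had 178, 164, 180, 175 and 167 CPM in intact males and 179, 187, 194, 209 and 198 CPM in GDX males. GDX male 1 alone lay within the intact range. The log2 fold change was 0.16 (SE 0.05, edgeR adjusted p = 0.0521). Without single rats the adjusted p rose to at most 0.137, and 6 of 10 such fits still called it.

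Of the X-linked members, Rps4x (ENSRNOG00000003201) had 101, 96.3, 108, 84.6 and 97.6 CPM in intact males and 99.1, 107, 122, 124 and 113 CPM in GDX males. GDX males 1 and 2 lay within the intact range and the other 3 above it. Its log2 fold change in males was 0.21 (SE 0.07, edgeR adjusted p = 0.0728), and only 3 of 10 fits without a rat called it. Between intact males and females it was -0.15 (SE 0.06, edgeR adjusted p = 0.218). Rpl10 has been described, and the other X-linked genes of the set fell short of the minimum, Rpl36a (ENSRNOG00000031315) with 43 to 115 counts and Rpl39 (ENSRNOG00000038654) with 0 to 4.

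Paralogs were compared where the table held them. Rpl7l1 (ENSRNOG00000016269), the relative of Rpl7, had 15.7, 16.1, 18.4, 15.0 and 16.6 CPM in intact males and 18.5, 20.4, 17.7, 16.1 and 17.3 CPM in GDX males. Its ranges overlapped, and the log2 fold change was 0.14 (SE 0.08, edgeR adjusted p = 0.286), beside 0.25 for Rpl7. Rps27 (ENSRNOG00000016961) had 14.2 to 20 CPM in intact and 18.4 to 22.2 CPM in GDX males, at 0.16 (SE 0.09, edgeR adjusted p = 0.305). Its relative Rps27l (ENSRNOG00000050473) had 26 to 52 counts and is not a member, and in males it was at 0.20 (SE 0.20, edgeR adjusted p = 0.595). Rpl22l1 (ENSRNOG00000011817) had 7.92 to 13.3 CPM in intact and 8.65 to 12.1 CPM in GDX males, at 0.00 (SE 0.14, edgeR adjusted p = 0.994), and no gene of the table has the symbol Rpl22. Rpl41 (ENSRNOG00000042233), which encodes the shortest of the ribosomal proteins, had 70.5 to 85.5 CPM in intact and 76.7 to 98.5 CPM in GDX males, at 0.14 (SE 0.07, edgeR adjusted p = 0.212).

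The remaining 24 genes with a fitting symbol fell below the minimum, 7 of them with 0 counts in some library. Just inside were Rpl22l1 with a lowest count of 102, and the Rpl21 genes ENSRNOG00000032803 with 109 and ENSRNOG00000029410 with 161. Just outside were Rps19l2 (ENSRNOG00000048199) with 81, Rpl13a (ENSRNOG00000062298) with 72 and Rps10l1 (ENSRNOG00000052141) with 44. Rps6 (ENSRNOG00000007663), the substrate of S6 kinase, had 40 to 221 counts and a log2 fold change in males of 0.54 (SE 0.28, edgeR adjusted p = 0.25). Of 16 such genes that could be tested, edgeR called 1 higher in GDX males, Rps18l1 (ENSRNOG00000033152) at 0.71 (SE 0.23, edgeR adjusted p = 0.0752). Ribosomal protein genes have many processed copies in the genome, and how reads that match several copies were counted is not given in the sources used here, so low counts of single genes are uncertain.

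Components of the ribosome whose symbols are of another form were followed beside the members. Rpsa (ENSRNOG00000018645), a protein of the small subunit known also as a laminin receptor, was at 0.11 in males (SE 0.05, edgeR adjusted p = 0.205). Fau (ENSRNOG00000020982), a fusion of a ubiquitin-like with a small subunit protein, was at 0.08 (SE 0.05, edgeR adjusted p = 0.366) and was lower in intact males than in intact females, at -0.18 (SE 0.05, edgeR adjusted p = 0.052). Rack1 (ENSRNOG00000052620), a scaffold on the small subunit, was higher in GDX males at 0.15 (SE 0.05, edgeR adjusted p = 0.0978). In OVX against intact females edgeR called 0 of these 3, and their smallest adjusted p was 0.871.

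Other genes of translation were taken as lists in GDX against intact males. Of 7 further transcripts with the same kind of tract, 2 were called higher and all 7 were positive, with a median of 0.11. Their summed level was 1039, 977, 1080, 990 and 1046 CPM in intact males 1, 2, 3, 5 and 6 and 1077, 1102, 1177, 1136 and 1151 CPM in GDX males 1, 2, 4, 5 and 6, so that only intact male 3 and GDX male 1 crossed. Pabpc1 (ENSRNOG00000008639), which binds the poly(A) tail, was at 0.25 (SE 0.04, edgeR adjusted p = 0.00611), and Naca (ENSRNOG00000002632), a chaperone at the tunnel exit, at 0.13 (SE 0.04, edgeR adjusted p = 0.0793). Of 7 elongation factors 1 was called higher, Eef1a1 (ENSRNOG00000009439), which brings transfer RNA to the ribosome, at 0.16 (SE 0.06, edgeR adjusted p = 0.0823). Its neuronal and muscle form Eef1a2 (ENSRNOG00000012477) was called lower, at -0.34 (SE 0.07, edgeR adjusted p = 0.0106).

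Initiation factors gave 0 calls among 32 by edgeR, with a median of 0.02. For ribosome biogenesis, 2 of 43 were called higher, with a median of 0.01, Nop16 (ENSRNOG00000017284) at 0.20 (SE 0.07, edgeR adjusted p = 0.0831) and Utp4 (ENSRNOG00000020333) at 0.28 (SE 0.09, edgeR adjusted p = 0.0839), both nucleolar proteins. Of 15 genes of mTOR signaling (complex subunits, upstream regulators, S6 kinases and downstream targets), 3 were called lower and none higher, with a median of -0.05. These include Rptor (ENSRNOG00000003821), the subunit that binds substrates of the first mTOR complex, at -0.21 (SE 0.04, edgeR adjusted p = 0.00989), and the kinase Mtor (ENSRNOG00000009615) itself at -0.19 (SE 0.06, edgeR adjusted p = 0.0586). Mitochondrial ribosomal proteins were called 3 higher and 3 lower of 73, with a median of -0.01. Subunits of oxidative phosphorylation were called 1 higher and 4 lower of 73, with a median of -0.02. The cytosolic members, at 17 of 65 and 0.14, stood apart from both by count and median, a difference that was not tested.

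Between intact males and intact females, the 7 further transcripts with a tract had 0 calls by edgeR and a median of -0.10, with 0 of them positive. Of 32 initiation factors 2 were called lower, led by the X-linked Eif2s3 (ENSRNOG00000060793) at -0.65 (SE 0.05, edgeR adjusted p = 8.22e-07). Dkc1 (ENSRNOG00000055562), an X-linked enzyme of ribosomal RNA modification, was the 1 gene of 43 in ribosome biogenesis that was called, higher at 0.19 (SE 0.05, edgeR adjusted p = 0.0664). In mitochondrial ribosomal proteins edgeR called 0 of 73, with a median of -0.01.

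Members varied together between rats of a group. After each group's mean was removed, the median correlation of log2 CPM over 2080 pairs of members was 0.51 (quartiles 0.33 and 0.67) across the 22 rats, and 90 pairs were negative. This is a description, since all pairs share libraries and scaling. The median SD within groups was 0.11 log2 units for members and 0.15 for all 15562 genes. It was lowest for Rpl4 at 0.05 and highest for the Rps27a gene ENSRNOG00000034246 at 0.69.

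Rps27a, which encodes ubiquitin joined to a small subunit protein, stands for 2 members. ENSRNOG00000004426 had 91.6 to 169 CPM over the rats and ENSRNOG00000034246 had 14.4 to 78.8 CPM, while their sum had 146 to 211 CPM. The highest value was thus 1.85 times the lowest for the first, 5.46 times for the other and 1.44 times for the sum. In OVX female 5 they were at 167 and 14.4 CPM, and in intact female 1 at 119 and 78.8 CPM. Their log2 levels within groups had r = -0.73 and rho = -0.73 across 22 rats. The pair was chosen after its values were seen, as the lowest r of 2080 pairs, so these values describe it and no p is given. Without the 2 rats farthest from the median r was -0.74, and it was -0.66 in the 15 shorter and -0.87 in the 7 longer libraries. Neither gene was called by edgeR in any comparison. Which reads the table assigned to each is not given in the sources used here, so the levels of either gene alone are uncertain.

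**Figure D5:**
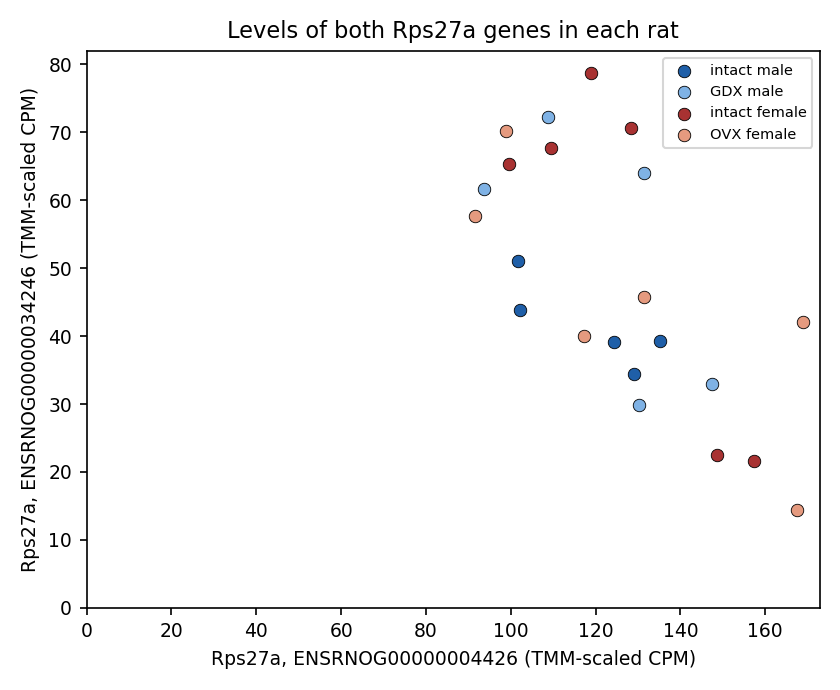
Levels (TMM-scaled CPM) of both genes with the symbol Rps27a, with 1 point per rat colored by group. Rats high in ENSRNOG00000004426 tend to be low in ENSRNOG00000034246, from 119 and 78.8 CPM in intact female 1 to 167 and 14.4 CPM in OVX female 5.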

How the data were processed

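Gene expression was measured by RNA sequencing in 22 rats. The values used are the raw counts per gene deposited by the authors, with no normalization. The submitters' processing notes name TopHat2 2.0.13 and Subread with genome build Rnor_6.0, while the study's methods name Hisat2 for mapping. For the libraries the labels name Illumina TruSeq protocols, and the methods name a SMARTer stranded kit for total RNA, which cannot be settled here. Settings for reads that match several places, strand and overlaps are not given in the sources used here. Library totals and the intervals of shares are given in the report, and these set the counting precision.

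CPM and log2 CPM (prior count 2, TMM factors) were computed here with R 4.3.3 and edgeR 4.0.16. Each comparison used the libraries of its groups, genes kept by filterByExpr, TMM, glmQLFit and glmQLFTest. P-values were adjusted by Benjamini-Hochberg over every gene in the fit, with calls at an adjusted p under 0.1. The groups were sex by gonadectomy, the interaction used all 22 rats, and the fragment class was taken within intact rats. The r and rho of member pairs used log2 CPM less each group's mean.

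Named members are the 5 called higher and the 5 called lower of smallest adjusted p in a comparison, or the 2 with the smallest p where none was called, and members with a role of their own (stalk, ubiquitin fusion, partners on the smallest large subunit RNA, paralogs, X-linked, shortest protein), with the 3 nearest to the minimum on either side. Members and list genes named by these rules are not all printed. From each list the 2 with the smallest p could be named. Lists covered ribosome components of other symbols, translation factors, other tract transcripts, ribosome biogenesis, mTOR, mitochondrial ribosome, oxidative phosphorylation, and cell markers. Members and lists were chosen with earlier results of these data known.

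Alternatives were DESeq2 1.42.0, RLE factors, TMM from non-members, no low-count filter, RNA integrity or fragment class as a term, the shorter class alone, 22 rats in 1 fit, rat number as a block, minimum counts of 10 and 1000, each rat left out, other totals for shares, and, chosen after seeing the data, the meninges and fibroblast level as a term. Python 3.11.15 with pandas 2.3.3 and matplotlib 3.10.9 read promoter sequences and drew figures. The fits were tested on simulated data, and the outcome is not given here.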

Additional observations from a re-analysis of the deposited data

Results flagged for a closer look

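In each group of 5 or 6 rats, the highest and lowest level of each named member, and of 5 summaries of members and meninges markers, was compared with the rest by Dixon's rule at 95%. Of 120 groups tested, 7 had a rat far from the others, and chance alone gives about 1 in 20. Intact female 4 stood high in Rpl31 with 51.8 CPM (others 44.6 to 46.8), in Rpl10 with 79.4 CPM (others 70.3 to 72.5) and in Rps9 with 40.2 CPM (others 15.8 to 22.1). Intact male 3 stood high in Rps16 with 85.5 CPM (others 75.2 to 78), and intact male 5 low in Rps10 with 28.1 CPM (others 32.4 to 33.5). GDX male 4 stood low in Rps18 with 39.7 CPM (others 49.2 to 53), and OVX female 5 high in Rplp0 with 188 CPM (others 158 to 169).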

How the results depend on the processing

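Members called in GDX against intact males (17) were 7 with RNA integrity as a term, 11 with fragment class as a term, 4 in the shorter class, 0 with the meninges and fibroblast level as a term (chosen after seeing the data) and 9 of 27 at a minimum count of 1000. With the meninges and fibroblast level as a term the median was 0.00246, and Rpl7 (-0.0125, edgeR adjusted p = 0.99) and Rps4x (-0.0546, edgeR adjusted p = 0.948) changed sign. That level itself separated GDX from intact males, so this fit cannot tell it apart from the group. In intact males against intact females (15) the calls were 23 by DESeq2, 2 in the shorter class, 1 with rat number as a block, 0 with the meninges and fibroblast level and 8 at a minimum of 1000, and the shorter class gave a median of -0.273. The interaction had 2 calls by DESeq2 and a median of 0.292 in the shorter class. Without a filter the fragment class had 2 calls. In the shorter class the share differed by -4.47% in OVX and -12.6% in intact males. Fewer members or rats enter the minimum of 1000 and the shorter class, and for the others the cause was not tested. All-gene shares of calls are not given for fits with a term or block, without a filter or rat, or in the shorter class. The meninges and fibroblast fits are the exception.

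With each rat left out, calls ranged from 6 to 30 in GDX males (median 0.12 to 0.172), from 3 to 33 in intact males against intact females (-0.178 to -0.119) and from 0 to 4 in the interaction (0.133 to 0.184). They were 0 throughout in OVX (-0.0485 to 0.0119), GDX against OVX (-0.00804 to 0.0484) and fragment class (-0.0399 to 0.0328). Shares differed by 5.36% to 8.35% in GDX, -1.3% to 0.611% in OVX and -9.72% to -7.24% in intact males.

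Rat number as a block gave 14 calls in GDX males and 0 in OVX, interaction, GDX against OVX and fragment class. Rats of equal number in different groups had correlations of -0.114 to 0.0626 over genes, so the numbers do not pair rats. Of 265 alternatives for 13 called results of named members, 263 kept the sign and 206 the call. Of 613 alternatives for named members without a call, 19 changed sign with no call in the alternative either.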
